A study of Mus musculus with 16 samples.

Results

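Duox2, Duoxa2, Nos2, Nox1 and Noxo1 are the oxidant-producing genes of the gut epithelium described here: a dual oxidase and its maturation factor, the inducible nitric oxide synthase, and an NADPH oxidase with its organizer subunit. The genes were chosen by name, with earlier results of these data known, and all 5 were present among the 16039 genes of the deposited single-cell matrix, which holds 22717 cells of mouse transverse colon. Of these cells, 10373 carried the authors' epithelial annotations and 3653 their myeloid ones.

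Each of the 16 libraries came from 1 female C57Bl/6J mouse, 7 weeks old, with the genotype given as C57BL/6. Dextran sulfate sodium (DSS), a detergent-like polymer that injures the colonic epithelium, was given at 4% in the drinking water for the whole experiment to all mice except the uninjured ones. On day 4 of DSS, mice received 10 mg/kg SZN-1326-p, a Wnt pathway agonist that acts through FZD receptors, or an antibody against GFP as the control agent. Cells were collected 24 h later on day 5 and 48 h later on day 6, from 2 uninjured mice, 3 given anti-GFP and 3 given SZN-1326-p at each time. No group received SZN-1326-p without DSS, and the labels name no antibody for the uninjured mice. The anti-GFP against uninjured comparison therefore carries DSS and the antibody together. Each mouse was dissociated into an EDTA-released epithelial suspension and a Liberase-digested remainder, so the mixture of cell types in a library also depends on the dissociation.

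As background, Duox2 moves electrons from NADPH across the apical membrane and releases hydrogen peroxide into the lumen, and Duoxa2 is needed for it to leave the endoplasmic reticulum. Nox1 makes superoxide at the colonic surface in a complex with p22phox (Cyba), the organizer Noxo1, the activator Noxa1 and the GTPase Rac1. Nos2 makes nitric oxide from arginine, with tetrahydrobiopterin as a cofactor, and is induced in epithelium and in phagocytes during inflammation. Phagocytes use another oxidase, built on Cybb with cytosolic subunits such as Ncf1 and Ncf4.

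In the GENCODE vM21 annotation of GRCm38, Duox2 lies at chr2:122279247-122298449 on the minus strand and Duoxa2 at chr2:122298900-122302885 on the plus strand. Their 5′ ends face each other 451 bases apart. Nos2 lies at chr11:78920787-78960254 on the plus strand, Nox1 at chrX:134086421-134221956 on the minus strand and Noxo1 at chr17:24696234-24700529 on the plus strand. RefSeq's promoter table for GRCm38.p6 held 4 of the 5 genes, with Nos2 missing. The 250 bases before the listed start of Duoxa2 (chr2:122298650-122298899, plus strand) are shown because they lie between this pair of divergent genes, whose levels moved the same way below. Those before Nox1 (chrX:134111855-134112104, minus strand) are shown because its level moved differently from theirs. Neither stretch overlaps a GENCODE exon, and capitals mark the motif matches given next.
Duoxa2: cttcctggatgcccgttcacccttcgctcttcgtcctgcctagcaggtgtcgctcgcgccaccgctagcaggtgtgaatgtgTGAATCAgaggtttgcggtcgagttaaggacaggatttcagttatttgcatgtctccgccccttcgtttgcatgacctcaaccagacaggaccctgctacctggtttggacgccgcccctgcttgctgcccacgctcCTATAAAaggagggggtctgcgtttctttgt
Nox1: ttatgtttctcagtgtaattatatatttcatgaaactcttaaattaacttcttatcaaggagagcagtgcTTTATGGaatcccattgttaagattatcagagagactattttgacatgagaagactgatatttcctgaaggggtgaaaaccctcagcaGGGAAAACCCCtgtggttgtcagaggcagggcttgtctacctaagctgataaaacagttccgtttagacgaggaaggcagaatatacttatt

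Motifs of 8 factors or elements were searched on both strands of each promoter window of 300 bases, 250 before and 50 after the start. In the Duoxa2 window, TGANTCA (AP-1) matched at position -168 and the core promoter element TATAAA at -30, and the latter overlaps a reverse-strand match of TTTATNG (CDX) at -31. In the Nox1 window, TTTATNG matched at -180, and the NF-kB-like motif (GGG and CC separated by any 5 bases) matched at -92 and, on the other strand, at the overlapping position -91. The Noxo1 window had 1 NF-kB-like match, at -178, and the Duox2 window had no match. The listed Duox2 start, chr2:122298227, lies inside the GENCODE gene, and 222 of the 250 bases before it are GENCODE exon. The listed Nox1 start, chrX:134111854, also lies inside its GENCODE gene, whose 5′ end is at 134221956. Over 32851 promoter windows of the same length, 7.81% held the AP-1 motif, 13.6% TATAAA, 10.9% the CDX motif and 50.8% the NF-kB-like motif. The other motifs, TTCNNNGAA (STAT), GAAA and GAAA separated by any 2 bases (IRF), ATCAAAG (TCF) and CAAAGTCCA (HNF4), occurred in 8.30%, 3.44%, 3.73% and 0.475% of windows and in none of the 4. GC content was 55.3% in the Duox2 window, 56.7% in the Duoxa2 window, 38% in the Nox1 window and 80.3% in the Noxo1 window, against a median of 52.7% over all windows. A match describes letters only.

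Libraries held 936 to 2033 cells and 9616512 to 21335421 unique molecular identifiers (UMIs, counted RNA molecules), with a median of 6459 to 11153.5 UMIs per cell. Between 192 and 1170 epithelial and between 49 and 395 myeloid cells per mouse entered the means. The median share of mitochondrial UMIs was 19.2% to 26.1% in uninjured, 5.06% to 11.6% in anti-GFP and 6.54% to 24.1% in SZN-1326-p libraries, where replicate 2 at 24 h (18.9%) and replicate 3 at 48 h (24.1%) stood above the rest. Of the 24 h libraries, uninjured 1, anti-GFP 1 and 2, and SZN-1326-p 1 held relatively more UMIs of long transcripts. Barcode sequences recurred in more than 1 library for 129 cells, with at most 4 shared by any pair. The epithelial annotation carried its markers: 7 epithelial markers summed to 85.9 to 275 normalized UMIs per cell in epithelial cells and to 2.53 to 13.4 in myeloid cells. The sources used here do not say whether counting used strand, and Noxo1 shares 2122 exon bases with Tbl3, Nox1 399 with Cstf2 and Duoxa2 682 with Duoxa1, each on the other strand. In epithelium Tbl3 and Cstf2 gave log2 differences of 0.13 and 0.16 between anti-GFP and uninjured mice (limma, adjusted p = 0.672 and 0.623), and Duoxa1 is not in the matrix.

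Levels are mean normalized UMIs per cell, the authors' depth-scaled UMIs averaged over the cells of a class in each mouse. Changes are differences of log2(level + 0.01) between groups with their standard error, tested with limma over all genes that passed a filter on low values and adjusted by Benjamini-Hochberg with a threshold of 0.05. All 5 genes passed that filter in epithelium. Levels of different genes are not compared with each other.

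Under DSS with the control antibody, 4 of the 5 genes rose in epithelial cells: Duox2, Duoxa2, Nos2 and Noxo1, the fold differing from gene to gene. Across all 10795 genes tested in this comparison, 23.3% passed, and 10.8% passed upward. Nox1 did not pass. With SZN-1326-p at 48 h, Duox2 and Nos2 were lower than in anti-GFP mice, and at 24 h Nox1 was higher; the other member comparisons at a single time did not pass. Both comparisons use the same anti-GFP mice, so a high value in one of those mice enters each.

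Duox2, the peroxide-releasing oxidase, stood at 0.641, 0.695, 0.611 and 0.490 in the 4 uninjured mice. The anti-GFP mice held 1.44, 3.91 and 1.17 at 24 h and 2.76, 1.99 and 1.40 at 48 h. Every anti-GFP mouse lay above every uninjured one, and the highest was replicate 2 at 24 h. Averaged over both times the log2 increase was 1.66 ± 0.31 (SE; adjusted p = 0.00187), from 0.609 ± 0.0865 (SD, n = 4) to 2.11 ± 1.05 (SD, n = 6). At 24 h alone it was 1.48 (adjusted p = 0.0468) and at 48 h 1.83 (adjusted p = 0.0241), where 9.27% and 5.2% of all genes passed.

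SZN-1326-p mice held 1.69, 1.80 and 0.819 of Duox2 at 24 h and 0.805, 0.729 and 0.561 at 48 h. At 24 h these values overlapped those of the anti-GFP mice and the difference of -0.47 did not pass (adjusted p = 0.467). By 48 h the groups no longer overlapped and Duox2 was lower by a log2 difference of -1.50 ± 0.39 (adjusted p = 0.0213), in a comparison where 12.5% of genes passed and 10.1% passed downward. Leaving out anti-GFP replicate 1 gave -1.26 (adjusted p = 0.0860), SZN-1326-p replicate 2 gave -1.54 (adjusted p = 0.0603) and replicate 3 gave -1.36 (adjusted p = 0.0694). The call also ended by voom (-1.0003, adjusted p = 0.0803) and without both SZN-1326-p mice of high mitochondrial share (-1.36, adjusted p = 0.0771). Over both times together the difference was -0.99 ± 0.28 (adjusted p = 0.0167, 28.1% of genes passed), and it passed without any one mouse. The difference between the 48 h and the 24 h effect was -1.04 and did not pass (adjusted p = 0.613), where 0.139% of genes did.

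Duoxa2, the maturation factor encoded beside Duox2, rose with DSS as well. Its levels were 0.0412, 0.219, 0.0888 and 0.106 in uninjured mice, 0.271, 1.15 and 0.291 in anti-GFP mice at 24 h and 1.30, 0.802 and 0.520 at 48 h. The groups did not overlap, and the log2 increase was 2.52 ± 0.50 (adjusted p = 0.00470). SZN-1326-p mice held 0.550, 0.601 and 0.409 at 24 h and 0.319, 0.344 and 0.130 at 48 h. At 48 h all 3 lay below the anti-GFP mice, with a difference of -1.71 ± 0.64 that did not pass (adjusted p = 0.105). At 24 h the difference was 0.18 (adjusted p = 0.883).

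Nos2, the inducible synthase, was close to absent in uninjured epithelium: 0, 0.00190, 0.00234 and 0.00308, from 5 UMIs in 4 of 4049 cells. Anti-GFP mice held 0.0376, 0.527 and 0.112 at 24 h and 0.925, 0.326 and 0.140 at 48 h. All 6 lay above all uninjured mice, yet they spread among themselves from 0.0376 to 0.925. The log2 increase was 4.29 ± 0.62 (adjusted p = 0.000404), on a scale where the added 0.01 exceeds the uninjured level itself. Anti-GFP replicate 1 at 48 h, the mouse with the highest Nos2, also held the highest sum of 7 neutrophil markers in its epithelial cells, 38.2 normalized UMIs per cell, with S100a8 at 13.5 and S100a9 at 20.0. Replicates 2 and 3 at 48 h kept that order, with Nos2 at 0.326 and 0.140 and sums of 1.33 and 0.0797. The anti-GFP mice at 24 h did not. At 24 h replicate 2, with Nos2 at 0.527, held a sum of 0.170, and replicate 3, with 0.112, a sum of 2.61. Over all 7 markers the sums ran from 0.00624 to 0.0124 in uninjured mice (S100a9, Retnlg and Mmp9 at 0), 0.0797 to 38.2 in anti-GFP mice and 0.0263 to 4.15 in SZN-1326-p mice. In the same cells 9 monocyte and macrophage markers summed to 0.0781 to 0.0999 in uninjured and 0.105 to 0.345 in anti-GFP mice. Anti-GFP replicate 1 at 48 h held 0.246 of these, and the highest Cybb, 0.0990. Replicate 3 at 48 h, with Nos2 at 0.140, held 0.345. The part of RNA from myeloid cells in epithelial Nos2 was not tested. Without anti-GFP replicate 1 at 48 h the Nos2 increase was 3.94 (adjusted p = 0.000220), and without cells carrying 2 markers of another lineage it was 4.32 (adjusted p = 0.000327). That filter took out 110 of 1943 anti-GFP and 44 of 4049 uninjured epithelial cells. Cells with 1 such marker stayed in, so it cannot remove RNA of other cells spread thinly over the rest.

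In SZN-1326-p mice Nos2 stood at 0.146, 0.158 and 0.0467 at 24 h and at 0.0409, 0.0391 and 0.0285 at 48 h. The 24 h values lay within the anti-GFP range (difference -0.36, adjusted p = 0.800). The 48 h values lay below all 3 anti-GFP mice, a log2 difference of -2.98 ± 0.78 (adjusted p = 0.0251). This call was lost when any of 5 mice was left out: the difference ranged from -2.29 (adjusted p = 0.0804), without anti-GFP replicate 1, to -3.05 (adjusted p = 0.0569), without SZN-1326-p replicate 1, and was -3.03 (adjusted p = 0.0501) without anti-GFP replicate 2, -3.03 (adjusted p = 0.0732) without SZN-1326-p replicate 2 and -2.85 (adjusted p = 0.0670) without SZN-1326-p replicate 3. A voom fit on UMI sums gave -2.18 (adjusted p = 0.105). Over both times the difference was -1.67 ± 0.55 (adjusted p = 0.0382), and leaving out any of 8 of the 12 mice ended that call (-2.07 to -1.20 over all 12).

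Nox1, the superoxide-producing oxidase, did not follow the Duox genes. Its level was 0.0503, 0.0275, 0.0312 and 0.0401 in uninjured mice, 0.0478, 0.0566 and 0.00989 in anti-GFP mice at 24 h and 0.0989, 0.0821 and 0.166 at 48 h. The uninjured and anti-GFP ranges overlapped, and the difference of 0.62 ± 0.31 did not pass (adjusted p = 0.154). It passed without anti-GFP replicate 3 at 24 h, the lowest mouse, at 0.90 (adjusted p = 0.0121). At 48 h alone the difference was 1.41 (adjusted p = 0.0720), with all 3 anti-GFP mice above the uninjured ones.

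With SZN-1326-p, Nox1 reached 0.129, 0.0740 and 0.107 at 24 h and 0.211, 0.326 and 0.179 at 48 h. At each time every SZN-1326-p mouse lay above every anti-GFP mouse. The log2 difference was 1.39 ± 0.39 at 24 h (adjusted p = 0.0344; 10.1% of genes passed, 5.89% upward) and 1.00 ± 0.39 at 48 h (adjusted p = 0.105), and over both times 1.19 ± 0.28 (adjusted p = 0.00484). At 24 h the call was lost without anti-GFP replicate 3 (0.84, adjusted p = 0.0809) and without SZN-1326-p replicate 1 (1.22, adjusted p = 0.0674), 2 (1.59, adjusted p = 0.0506) or 3 (1.35, adjusted p = 0.114). It was also lost with no filter on low values (adjusted p = 0.0591), in a fit of only the groups compared (adjusted p = 0.135) and without both SZN-1326-p mice of high mitochondrial share (1.59, adjusted p = 0.0641). A fit with a term for the long-transcript libraries gave 1.71 at 24 h (adjusted p = 0.00237) and 1.00 at 48 h (adjusted p = 0.0207). Over both times the value passed with any one mouse left out.

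Noxo1, the organizer that holds the Nox1 complex in an active state, had the smallest standard error of the 5 genes. Uninjured mice held 0.477, 0.536, 0.505 and 0.535, anti-GFP mice 0.951, 1.25 and 0.856 at 24 h and 1.25, 0.951 and 0.972 at 48 h. The groups were separate, and the log2 increase was 0.99 ± 0.14 (adjusted p = 9.33e-05), about equal at 24 h (0.98, adjusted p = 0.00475) and 48 h (1.00, adjusted p = 0.00538). SZN-1326-p mice held 0.861, 1.04 and 0.844, then 0.872, 0.855 and 1.05, overlapping the anti-GFP mice at both times. The differences were -0.14 (adjusted p = 0.624) and -0.19 ± 0.17 (adjusted p = 0.509).

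**Figure D1:**
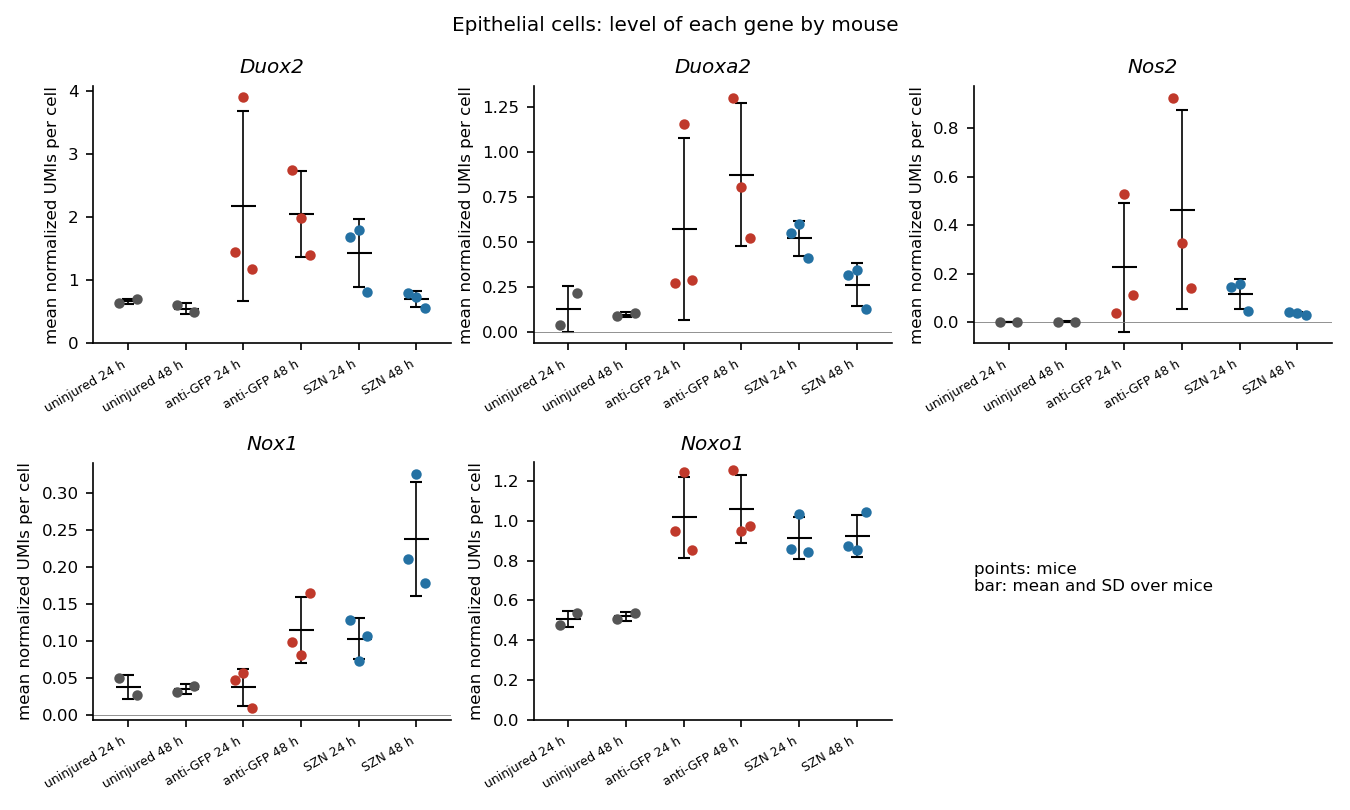
Mean normalized UMIs per epithelial cell (vertical axis, linear, its own range for each gene) in the 6 groups; points are mice, bars the mean and SD. Duox2, Duoxa2 and Nos2 are high and widely spread in anti-GFP mice, Nox1 is highest in the SZN-1326-p mice at 48 h (0.179 to 0.326), and Noxo1 is above its uninjured values in all DSS mice.

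The epithelial means combine cell types whose numbers changed, and the types that held each gene differed. In the uninjured colon the type annotated Enterocyte made up 19.6% of epithelial cells and held 70.8% ± 13.2 of the normalized Duox2 UMIs (SD, n = 4), with BasalGoblet next at 12.6%. In anti-GFP mice no Enterocyte group reached 20 cells. There AltEnterocyte, 11.7% of epithelial cells and with no cell in any uninjured mouse, held 48.6% ± 16.1 of Duox2 (n = 6). With SZN-1326-p it held 29.0% ± 8.56 from 3.72% of the cells, followed by TA2 (13.4%) and EnteroPrecur (12.5%).

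Duoxa2 had a like split, with Enterocyte at 78.7% ± 11.6 in uninjured mice and AltEnterocyte at 61.1% ± 18.4 in anti-GFP and 38.6% ± 10.1 in SZN-1326-p mice. AltEnterocyte held 58.9% ± 33.1 of Nos2 in anti-GFP mice and 60.4% ± 30.7 in SZN-1326-p mice. Nox1 lay in other cells: StemCell (41.4% ± 17.2), TA2 (23.6%) and TA1 (13.4%) in uninjured mice, TA2 (45.5%) and TA1 (32.5%) in anti-GFP mice, and TA2 (44.8%), EnteroPrecur (18.9%) and TA1 (16.3%) in SZN-1326-p mice. TA1 cells were concentrated in the long-transcript 24 h libraries named above. There TA1 was 7.32% of epithelial cells in uninjured replicate 1, 25.7% and 21.5% in anti-GFP 1 and 2, and 47.2% in SZN-1326-p 1. Elsewhere TA1 was 0.855% to 12.0%. In the DSS libraries among them, TA2 was 0.615% to 3.50%. The part of library type in the Nox1 split among StemCell, TA1 and TA2 was not tested. Noxo1 was spread over types, none of which held more than 20.2% of it.

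**Figure D2:**
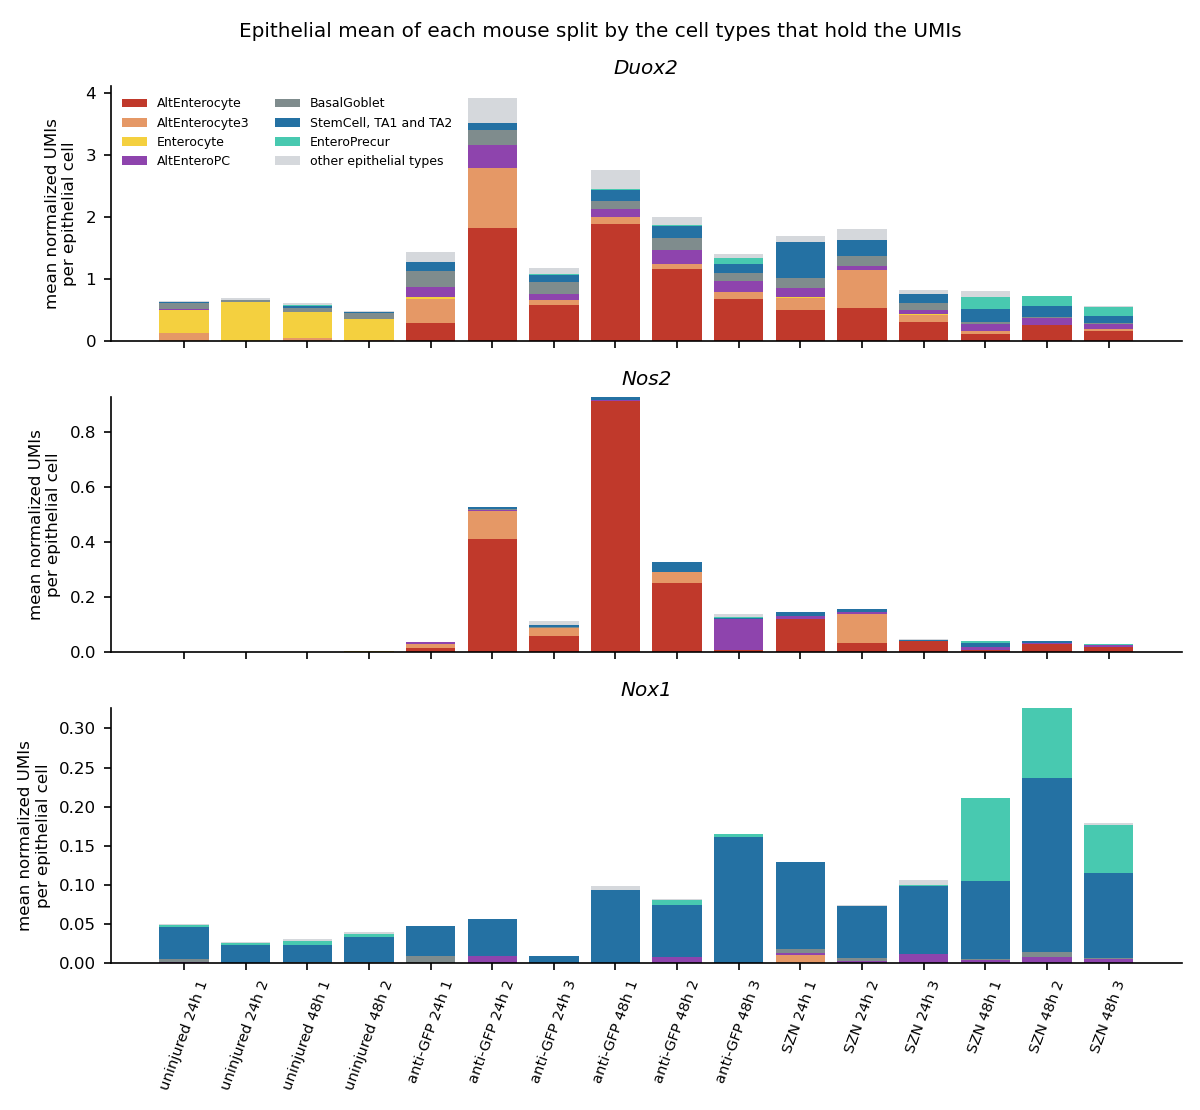
Epithelial mean of Duox2, Nos2 and Nox1 in each of the 16 mice (bars from 0, mean normalized UMIs per epithelial cell), split by the annotated types that hold the UMIs. Enterocyte carries most of the uninjured Duox2. AltEnterocyte carries 20.3% to 68.7% of the Duox2 and 5.94% to 98.6% of the Nos2 in the 6 anti-GFP mice, and StemCell, TA1, TA2 and, in SZN-1326-p mice at 48 h, EnteroPrecur carry Nox1.

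AltEnterocyte made up 5.66%, 14.8% and 6.30% of epithelial cells in the anti-GFP mice at 24 h and 22.1%, 10.7% and 10.4% at 48 h. In SZN-1326-p mice it was 6.63%, 4.47% and 4.77%, then 1.96%, 2.45% and 2.06%. EnteroPrecur, in turn, was 36.3%, 34.5% and 42.4% of epithelial cells in SZN-1326-p mice at 48 h and 3.40%, 3.76% and 9.90% in anti-GFP mice. The lower epithelial Duox2 at 48 h came with fewer cells of its highest type. The part of the type mix in that difference was not tested. With AltEnterocyte and AltEnterocyte3 cells left out of the means, an alternative chosen after seeing the data, the Duox2 difference at 48 h was -0.78 (adjusted p = 0.183) and the DSS increases were 0.63 for Duox2 (adjusted p = 0.0847) and 0.92 for Duoxa2 (adjusted p = 0.103). The Nos2 and Noxo1 increases with DSS still passed without those cells.

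Within types, levels are means over mice with at least 20 cells of the type. Duox2 in AltEnterocyte was 8.79 ± 2.67 in anti-GFP mice (SD, n = 6) and 8.34 ± 2.40 in SZN-1326-p mice (n = 4), above the next type in anti-GFP mice by more than the larger SD. Enterocyte held 2.22 ± 0.336 in uninjured mice (n = 4), not separable from AltEnterocyte3 at 2.43 ± 1.45 (n = 2) but above BasalGoblet at 0.609. Lower down, AltEnteroPC held 0.0497 (n = 3) in uninjured, 0.969 ± 0.269 in anti-GFP and 0.601 ± 0.195 in SZN-1326-p mice (n = 6 each), and TA2 held 0.105, 0.644 and 0.531. Duoxa2 had the same leading type, 3.76 ± 1.72 and 3.78 ± 1.88 in AltEnterocyte of anti-GFP and SZN-1326-p mice, against 0.475 ± 0.298 in uninjured Enterocyte.

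Nos2 in AltEnterocyte varied by mouse. The anti-GFP mice held 0.267, 2.78 and 0.953 at 24 h and 4.12, 2.36 and 0.0799 at 48 h, and their mean of 1.76 ± 1.59 (n = 6) stood beside 1.09 ± 0.505 in 4 SZN-1326-p mice. Few cells carried it: 183 of 10373 epithelial cells held all 698 epithelial Nos2 UMIs, the top 19 of them 51.1%, and 1 cell held 85. In AltEnterocyte, 76 of 372 cells held 470 UMIs. Uninjured Enterocyte held 0.0105 ± 0.00925, and the other uninjured epithelial types with 20 cells held none.

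Nox1 was high in StemCell and the TA types. In uninjured mice StemCell held 0.142 ± 0.0366 and TA2 0.133 ± 0.0373, while Enterocyte held none. TA2 held 0.318 ± 0.244 in anti-GFP and 0.286 ± 0.192 in SZN-1326-p mice, TA1 0.304 ± 0.225 and 0.151 ± 0.107, and StemCell 0.0759 and 0.282 ± 0.268. These means pool 24 h and 48 h, at which the levels differed. In that order StemCell held 0 and 0.152 with anti-GFP (n = 1 each) and 0.0280 (n = 2) and 0.452 (n = 3) with SZN-1326-p. TA2 held 0.0444 (n = 1) and 0.409 (n = 3) with anti-GFP, and 0.139 and 0.434 with SZN-1326-p (n = 3 each). TA1 held 0.176 (n = 2) and 0.558 (n = 1) with anti-GFP, but 0.211 (n = 2) and 0.0288 (n = 1) with SZN-1326-p. EnteroPrecur held 0.232 ± 0.0777 in SZN-1326-p mice, all at 48 h, against 0.0316 in uninjured mice of both times. In AltEnterocyte Nox1 was 0.0024 in anti-GFP and 0 in SZN-1326-p mice. Noxo1 ranged in uninjured mice from 0.250 in Enterocyte to 0.732 in ImmEntero1, 0.722 in StemCell and 0.709 in BasalGoblet, and was highest in AltEnterocyte in anti-GFP mice at 1.83 ± 0.259.

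**Figure D3:**
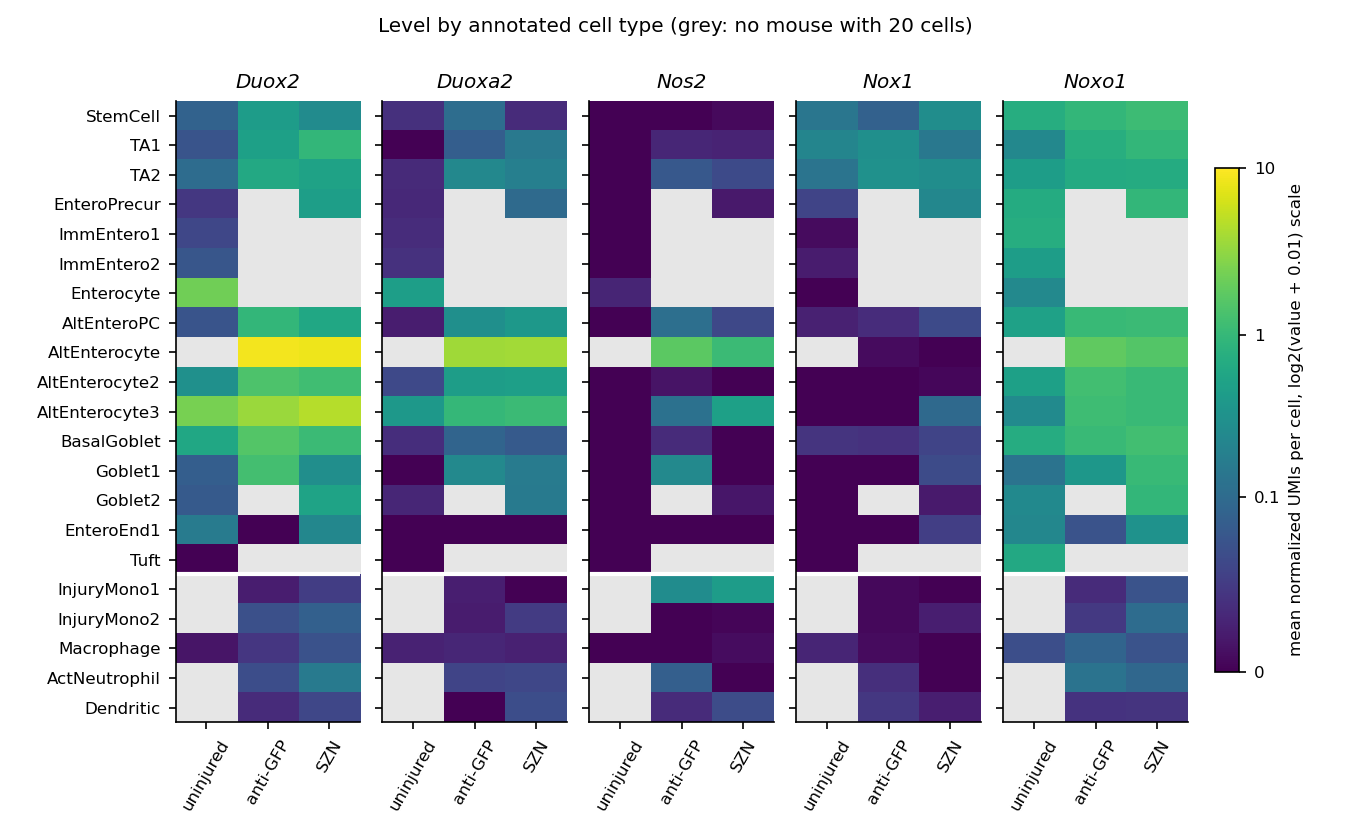
Mean level of each gene by annotated type (rows; epithelial above the white line, myeloid below) and treatment (columns), with colour on a log2(value + 0.01) scale and grey where no mouse had 20 cells. Duox2, Duoxa2 and Nos2 peak in AltEnterocyte of DSS mice, Nox1 in StemCell, TA1, TA2 and EnteroPrecur, and Noxo1 is broad.

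The share of cells with a UMI was read after every cell was thinned to 3000 UMIs, with unthinned shares in parentheses. Duox2 was detected in 23.2% of 719 uninjured Enterocyte cells (35.5%) and in 58.9% of 202 anti-GFP (90.3%) and 62.7% of 150 SZN-1326-p AltEnterocyte cells (84.3%). In fibroblasts, which should lack it, the thinned share was 0.458% in uninjured, 0.503% in anti-GFP and 0.357% in SZN-1326-p mice. Median depth was 17894 and 8269 UMIs in AltEnterocyte and 6829, 12148 and 8694 in fibroblasts. Nox1 was detected in 0.770% of uninjured, 1.48% of anti-GFP and 4.11% of SZN-1326-p epithelial cells, against 0%, 0.126% and 0.198% of fibroblasts. Nos2 was detected in 32 of 202 anti-GFP and 24 of 150 SZN-1326-p AltEnterocyte cells.

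Within the DSS-exposed AltEnterocyte cells, Duoxa2 was found in 111 of 213 cells with a Duox2 UMI (52.1%) and in 23 of 139 without one (16.5%), after thinning. The cells without Duox2 were the deeper ones before thinning, at a median of 23465 against 9890 UMIs. Duox2 was found in 51 of 56 Nos2-positive cells (91.1%) and 162 of 296 others (54.7%). In StemCell, TA1 and TA2 cells of DSS mice, Noxo1 was found in 19.7% of Nox1-positive and 19.3% of other cells. These are descriptions of cells pooled over mice.

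Comparisons inside a type were possible where 2 mice per group held 20 cells. In AltEnteroPC at 24 h, Duox2 was 0.0962 and 0 in the 2 uninjured mice and 1.03, 1.32 and 0.571 in the anti-GFP mice, a log2 increase of 4.83 ± 0.67 (adjusted p = 0.00043), in a comparison where 10.5% of genes passed. Duoxa2 rose there by 3.60 ± 0.57 (adjusted p = 0.000955) and Noxo1 by 1.09 ± 0.28 (adjusted p = 0.0203). The Noxo1 call was lost without uninjured replicate 2 (0.67, adjusted p = 0.196) or anti-GFP replicate 1 (1.07, adjusted p = 0.0618) or 2 (1.05, adjusted p = 0.0651). In TA2 at 48 h, Duox2 was 0.192 and 0.0780 in uninjured and 0.730, 0.644 and 0.774 in anti-GFP mice, an increase of 2.44 ± 0.39 (adjusted p = 0.00293; 2.28% of genes passed), and Duoxa2 rose by 3.14 ± 0.42 (adjusted p = 0.000726). The TA2 Duox2 increase was 1.84 (adjusted p = 0.0533) without uninjured replicate 2. In BasalGoblet at 24 h the Duox2 difference of 1.54 ± 0.35 did not pass (adjusted p = 0.0963; 0.0552% of genes passed).

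Between SZN-1326-p and anti-GFP mice, no member passed within any epithelial type tested. In AltEnterocyte at 24 h (0.173% of genes passed), Duox2 was 7.57, 11.8 and 6.38 against 5.18, 12.4 and 9.17, a difference of -0.01 ± 0.29 (adjusted p = 0.994), and Duoxa2 differed by 0.65 ± 0.42 (adjusted p = 0.687). In TA2 at 48 h (0.0281% of genes passed), Duox2 differed by -0.35 ± 0.34 (adjusted p = 0.752) and Nox1 by 0.15 ± 0.65 (adjusted p = 0.955), with Nox1 at 0.312, 0.544 and 0.446 against 0.348, 0.247 and 0.631. In AltEnteroPC Duox2 differed by -0.88 at 24 h (adjusted p = 0.620; 0.019% of genes passed), by -0.52 at 48 h (adjusted p = 0.869; 0.2% passed) and by -0.70 over both times (adjusted p = 0.442; 1.38% passed). Nor did any member pass in AltEnterocyte2 at 24 h, where 0.0203% of genes passed. In TA1 (2 residual degrees of freedom) and BasalGoblet at 24 h, 0 of 10296 and 0 of 10866 genes passed. Those comparisons called no gene at all, so they cannot set the members apart from other genes. AltEnterocyte could not be tested at 48 h, where SZN-1326-p replicates 1 and 2 held 10 and 11 such cells.

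**Figure D4:**
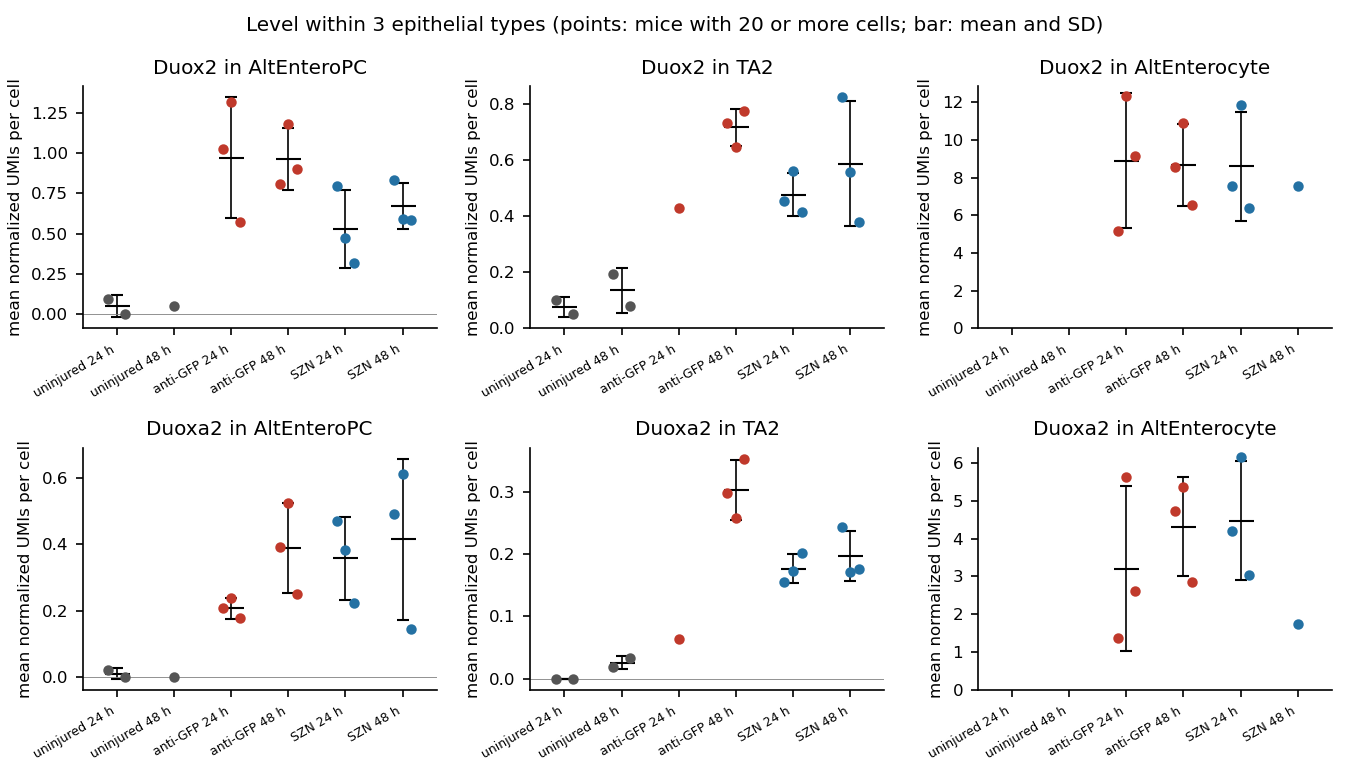
Duox2 (top) and Duoxa2 (bottom) within AltEnteroPC, TA2 and AltEnterocyte: mean normalized UMIs per cell by group, points for mice with at least 20 cells of the type, bars for mean and SD. In AltEnteroPC and TA2 all anti-GFP mice lie above all uninjured mice for both genes, and in AltEnterocyte the anti-GFP and SZN-1326-p points overlap at 24 h.

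In myeloid cells the same genes were sparse: 88 of 8088 Duox2 UMIs, 36 of 2937 Duoxa2 UMIs, 15 of 1157 Nox1 UMIs and 121 of 9722 Noxo1 UMIs lay there, but 271 of 1094 Nos2 UMIs. Duoxa2 and Nox1 did not pass the filter. The type mix of the class differed between arms. Of 234 uninjured myeloid cells, 176 were Macrophage, 26 InjuryMono2, 2 ActNeutrophil and 1 InjuryMono1. Of 1887 anti-GFP cells the numbers were 227, 628, 332 and 442 in the same order. A class difference with DSS therefore carries this mix, whose part was not tested. Nos2 was 0 in all 4 uninjured mice (0 of 204 thinned cells, which allows a share of cells with a UMI of up to 1.47%). The anti-GFP mice held 0.0238, 0.0996 and 0 at 24 h and 0.116, 0.359 and 0 at 48 h, so the groups overlapped at 0, and the comparison did not pass (adjusted p = 0.0804). It passed without anti-GFP replicate 3 at 24 h (adjusted p = 0.0434) or at 48 h (adjusted p = 0.00696), which were the 2 anti-GFP mice at 0. Most of it was in InjuryMono1, where 29 of 659 cells held 257 UMIs and 1 cell held 67.

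Duox2 passed in myeloid cells at a low level: 0.0295 ± 0.0153 in anti-GFP mice (n = 6) against 0.00344 ± 0.00688 in uninjured mice (n = 4), a log2 difference of 1.56 ± 0.54 (adjusted p = 0.0321), where 31.2% of the 10981 genes tested passed. The groups overlapped, the call ended when any of 7 of the 10 mice was left out (1.25 to 1.87), and voom gave 0.53 (adjusted p = 0.723). Beside it, the thinned share of myeloid cells with a Duox2 UMI was 0.490% in uninjured, 0.661% in anti-GFP and 1.08% in SZN-1326-p mice (Wilson 95% intervals 0.0866% to 2.72%, 0.359% to 1.21% and 0.617% to 1.87%), at median depths of 8220, 8317 and 6724 UMIs. The 7 epithelial markers summed to 3.87 to 10.4, 2.53 to 5.37 and 4.24 to 13.4 in these cells, none of the 7 at 0. The fibroblast shares given above lie inside the first 2 intervals. That of SZN-1326-p mice lies below the third, but its own interval, 0.188% to 0.676%, overlaps it. All these intervals pool cells over mice and leave out the spread between mice, so they cannot show a difference between classes or arms. At least 2 markers of another lineage were found in 182 of 234 uninjured, 811 of 1887 anti-GFP and 984 of 1532 SZN-1326-p myeloid cells. The part of RNA from other cells was not tested. Noxo1 did not pass (0.65, adjusted p = 0.329). Within Macrophage, the myeloid type with 20 cells in every uninjured mouse, neither Duox2 (0.48, adjusted p = 0.857) nor Noxo1 (0.76, adjusted p = 0.742) passed, where 2.41% of genes did. Between SZN-1326-p and anti-GFP mice over both times, 0.0455% of genes passed in myeloid cells, and the differences of Duox2 (0.82, adjusted p = 0.572), Nos2 (-1.07, adjusted p = 0.716) and Noxo1 (0.52, adjusted p = 0.716) were not among them.

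Of 16 NADPH oxidase genes, 8 could be tested in epithelium. With DSS 4 rose and none fell, where 23.3% of all genes passed and 10.8% passed upward. Their median log2 difference over the 8 was 0.81 against 0.005 over all genes. Duox2, Duoxa2, Nox1 and Noxo1, members chosen with earlier results of these data known, are among the 8. The count and the median therefore partly restate their results. Of the 4 that rose, 3 are members. The other was Rac2, a leukocyte GTPase, at 1.68 (adjusted p = 0.0259), whose call ended when any of 5 of the 10 mice was left out (1.44 to 2.03). The neutrophil marker sums given for Nos2 were also higher in anti-GFP than in uninjured mice, but did not follow Rac2 from mouse to mouse. Anti-GFP replicate 1 at 48 h was highest in both, at 0.348 for Rac2 and 38.2. Replicate 3 at 48 h held Rac2 at 0.293 with the lowest anti-GFP sum, 0.0797, and replicate 2 held 0.0683 with 1.33. The highest sum of 9 monocyte and macrophage markers, 0.345, was in replicate 3 at 48 h. The part of either marker set was not tested. The other parts of the Nox1 complex did not pass: Cyba differed by 0.53 (adjusted p = 0.185), Noxa1 by 0.39 (adjusted p = 0.141) and Rac1 by -0.18 (adjusted p = 0.386). With SZN-1326-p at 48 h, 2 of the 8 fell and none rose, where 12.5% of all genes passed and 10.1% passed downward. The median was -0.28 against -0.11. The 2 were Duox2 and Rac2, the latter at -2.67 (adjusted p = 0.0131). The Rac2 call was lost without anti-GFP replicate 1 or SZN-1326-p replicate 2 (-3.36 to -2.03 with each mouse left out in turn). Cyba (0.47, adjusted p = 0.413), Noxa1 (0.49, adjusted p = 0.191) and Rac1 (-0.38, adjusted p = 0.190) did not pass. At 24 h Nox1 alone of the list passed, where 10.1% of all genes passed.

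Of 17 nitric oxide and arginine genes, 13 were tested in epithelium. With DSS 3 rose and none fell (median 0.12), a share of calls no higher than the 23.3% of all genes that passed in either direction. Upward, 10.8% of all genes passed. The 3 were Nos2, Ddah1, which breaks down methylated arginines that inhibit the synthases (0.92, adjusted p = 6.88e-05), and the arginine transporter Slc7a1 (0.71, adjusted p = 0.00804; lost without uninjured replicate 2 at 24 h or 1 at 48 h, range 0.55 to 0.87). Gch1, which makes the first intermediate of tetrahydrobiopterin, differed by 0.12 (adjusted p = 0.619), Ass1, which regenerates arginine from citrulline, by -0.53 (adjusted p = 0.139), and Arg2 by 0.67 (adjusted p = 0.462). With SZN-1326-p at 48 h, 3 fell and 1 rose (median -0.22), where 12.5% of all genes passed. Gch1 fell from 0.479 ± 0.145 to 0.230 ± 0.0254 (n = 3 each; -0.99, adjusted p = 0.00454) and its regulator Gchfr by 1.73 on the log2 scale (adjusted p = 0.00688), beside Nos2. Without anti-GFP replicate 1, the mouse with the highest neutrophil marker sum, Gchfr differed by -1.13 (adjusted p = 0.0245), and a fit of only the groups compared ended its call (adjusted p = 0.0543). Ass1 rose from 0.0742 ± 0.0203 to 0.194 ± 0.0326 (1.29, adjusted p = 0.0136), a call that ended without anti-GFP replicate 1 or 3 or SZN-1326-p replicate 2 or 3 (1.19 to 1.48).

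Of 22 genes that remove superoxide and peroxide, 20 were tested in epithelium, and with DSS 2 rose and 2 fell (median -0.17), a smaller share than the 23.3% of all genes that passed. Gpx2, the glutathione peroxidase of gut epithelium, rose by 0.86 (adjusted p = 0.00505), and Hmox1, a haem-degrading enzyme induced by oxidants, by 0.96 (adjusted p = 0.0455). Sod2, the mitochondrial superoxide dismutase, fell from 1.90 ± 0.251 to 1.09 ± 0.220 (-0.80, adjusted p = 0.00106), and Prdx2 fell by 0.68 (adjusted p = 0.0242). The Hmox1 call ended without any 1 of the 4 uninjured mice or anti-GFP replicate 3 at 24 h (0.77 to 1.16), and the Prdx2 call without any of 6 of the 10 mice (-0.81 to -0.55). The mitochondrial share of the uninjured libraries was above that of the anti-GFP libraries, as given above, and its part in the Sod2 difference was not tested. Gpx2 was higher with SZN-1326-p at 24 h, 7.66 ± 1.81 against 2.50 ± 0.764 (1.62, adjusted p = 0.00209), and at 48 h, 9.89 ± 2.48 against 4.71 ± 0.837 (1.06, adjusted p = 0.00971; lost without SZN-1326-p replicate 2, range 0.86 to 1.19). Prdx4 rose at 48 h (1.26, adjusted p = 0.0203), and Srxn1, which repairs oxidized peroxiredoxins, fell at 24 h (-0.68, adjusted p = 0.0386) and 48 h (-1.30, adjusted p = 0.000429). The Prdx4 call ended when any of 3 mice was left out (1.12 to 1.44) and the 24 h Srxn1 call when any of 3 was (-0.83 to -0.54).

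Among 22 tested receptors and regulators upstream of these genes, 6 rose and 3 fell with DSS (median 0.01), beside 23.3% of all genes. Socs3, a feedback inhibitor of STAT3 signalling, rose from 0.0965 ± 0.0263 to 0.534 ± 0.241 (2.26, adjusted p = 6.9e-06), Stat3 by 1.21 (adjusted p = 4.14e-05) and Tlr2 by 1.11 (adjusted p = 0.00108). Il22ra1, a subunit of the IL-22 receptor, fell by 1.52 (adjusted p = 0.0109). With SZN-1326-p at 48 h, 5 fell and none rose (median -0.35), where 10.1% of all genes passed downward, among them Nfkbiz (-1.08, adjusted p = 0.00887), Socs3 (-1.03, adjusted p = 0.0308), Irf1 (-0.78, adjusted p = 0.00370) and Tlr4 (-0.72, adjusted p = 0.0400). At 24 h Tlr4 fell by 0.73 (adjusted p = 0.0440). Leaving out 1 mouse ended the 48 h calls of Socs3 (4 of 6 mice, -1.40 to -0.75), Tlr4 (5 of 6, -0.84 to -0.53) and Nfkbiz (2 of 6, -1.29 to -0.77), the 24 h call of Tlr4 (4 of 6, -0.88 to -0.57) and the DSS call of Il22ra1 (1 of 10, uninjured replicate 1 at 48 h). Lpo, a secreted peroxidase that uses hydrogen peroxide, rose with DSS (1.32, adjusted p = 3.23e-05) and fell with SZN-1326-p at 48 h (-1.15, adjusted p = 0.00134). Without AltEnterocyte and AltEnterocyte3 cells, the 48 h calls were lost for Gch1 (-0.72, adjusted p = 0.0527), Gchfr (-0.60, adjusted p = 0.464), Nfkbiz (-0.91, adjusted p = 0.0913), Irf1 (-0.61, adjusted p = 0.0558), Tlr4 (-0.68, adjusted p = 0.0590) and Lpo (-0.57, adjusted p = 0.134), as were the 24 h calls of Tlr4 (-0.47, adjusted p = 0.158) and Srxn1 (-0.47, adjusted p = 0.125). Those of Ass1 and Socs3 passed without them.

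In the myeloid class Ncf1 and Ncf4, cytosolic subunits of the phagocyte oxidase, rose with DSS. These class means carry the change of type mix given above, and its part was not tested. Ncf1 rose from 1.21 ± 0.241 to 2.47 ± 0.460 (1.03, adjusted p = 0.000194) and Ncf4 by 0.54 (adjusted p = 0.0157; lost without uninjured replicate 1 at either time). Cybb (8.08 against 6.46; 0.30 ± 0.17, adjusted p = 0.183) and Cyba (9.40 against 9.89; -0.07, adjusted p = 0.817) did not pass. Of the 10 NADPH oxidase genes tested, 5 rose and 1 fell (median 0.60, against 0.01 over all genes). Of 14 nitric oxide and arginine genes, 6 rose and 2 fell (median 0.95): Gch1 from 0.247 to 1.03 (2.02, adjusted p = 2.04e-08), Ass1 from 0.0871 to 0.738 (3.23, adjusted p = 0.000364) and Arg2 from 0.0648 to 2.78 ± 1.35 (6.32, adjusted p = 0.000136). Arg1 was 0 in all uninjured mice and 0.745 ± 0.549 in anti-GFP mice (adjusted p = 2.13e-06). The 7 neutrophil markers moved with these genes: they summed to 0.490 to 48.3 in uninjured, 121 to 561 in anti-GFP and 93.3 to 462 in SZN-1326-p mice, and their part was not tested. The Arg1 call was lost in a voom fit. Of 21 disposal genes 6 rose and 3 fell, and of 22 upstream genes 13 rose and none fell, where 31.2% of all genes passed in either direction. The share that passed upward over all genes is not given here for this class, so its list counts by direction have no matching share.

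**Figure D5:**
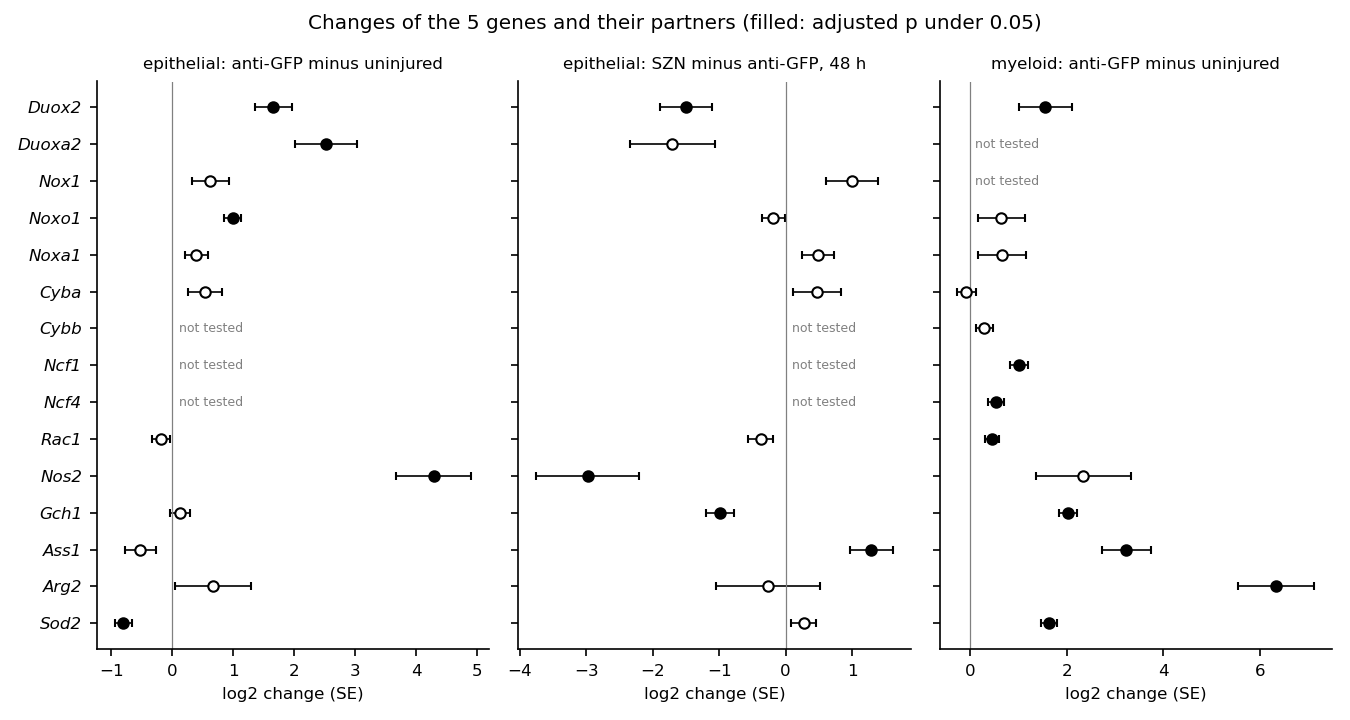
Log2 difference with SE (horizontal) of the 5 genes and their partners in 3 comparisons; filled points have an adjusted p under 0.05, and "not tested" marks genes below the filter. In epithelium Duox2, Duoxa2, Nos2 and Noxo1 lie to the right with DSS, Duox2, Nos2 and Gch1 to the left with SZN-1326-p at 48 h, and in myeloid cells Ncf1, Gch1, Ass1 and Arg2 lie to the right.

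Across 13 epithelial types of DSS mice, the genes whose type means were most like those of Duox2, by Pearson r on the log2 scale, were Prkcd (0.96), Tacc2 (0.95), Cxadr (0.95), Lamb3 (0.94) and Nfkbiz (0.94). For Duoxa2 they were Sprr2a1 (0.94), Eif2s2 (0.94), Rnd3 (0.93), Aim2 (0.93) and Ak4 (0.93), and for Nos2 Ly6g (0.94), Csta1 (0.94), St8sia5 (0.91), Atp12a (0.90) and Slc37a2 (0.89). Nox1 was nearest to Trim28 (0.96), Mfge8 (0.96), Adsl (0.94), Cdca7l (0.93) and Wdr4 (0.93), and Noxo1 to Paqr4 (0.94), Tjp3 (0.93), Itgb4 (0.93), Dcxr (0.93) and Ccdc85c (0.92). Between members, r was 0.86 for Duox2 with Duoxa2, 0.88 for Duoxa2 with Nos2 and 0.72 for Duox2 with Nos2, while Nox1 lay between -0.39 and -0.07 with the other 4. The types share mice and libraries, so these values describe the pattern only.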

How the data were processed

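Per the labels' protocols, epithelium and lamina propria of the transverse colon of 16 mice were dissociated separately and prepared for flow sorting. The labels name the 10x Genomics platform, with 1 library per mouse. The submitters' processing notes name Cell Ranger 3.0.2 and mm10. The deposited matrix holds log2 values. How the authors made them is not given in the sources used here; the values fit log2 of UMIs divided by a size factor per cell, plus 1, and the authors' deposited text table gives the cell types. All 60867816 entries above 0 were whole UMIs (100% within a tolerance of 1e-06).

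The members and gene lists were chosen with earlier results of these data known. Normalized UMIs were averaged per mouse and class (17 epithelial or 6 myeloid types, at least 20 cells). Genes with a mean of 0.05 in 2 mice were kept. log2(mean + 0.01) was tested with limma 3.58.1 (trend and robust, R 4.3.3) in 1 fit of 6 groups with 10 residual degrees of freedom, after a check on simulated data. The DSS comparison averages both times. Count tests were planned, but the unit is log2, so limma was used, with voom on recovered UMI sums as an alternative. Python 3.11.15 (numpy 2.4.6, scipy 1.17.1, pandas 2.3.3) computed the rest. Named genes were the 5 members, 14 partners whatever their result (1 further listed gene is not reported here), up to 4 more genes past the test per list and comparison, and the 5 genes most like each member across types. Shares were read in cells thinned to 3000 UMIs. No doublet caller was run, and the sort gate is not given in the sources used here. Limits for a count of 0 cover counting error only. Alternatives were the filter, the pseudocount (0.1), voom, the groups in the fit, the replicate block, a library term, the minimum of cells, marker-positive cells, mitochondrial share and each mouse left out.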

Additional observations from a re-analysis of the deposited data

Results flagged for a closer look

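Among 30 combinations of gene, cell class and arm, 4 held a mouse set apart from the others of its arm by Dixon's criterion at the 95% level, which chance alone meets in about 1 of 20. All 4 lay in myeloid cells. Nos2 was 0.359 normalized UMIs per cell in anti-GFP replicate 2 at 48 h and 0.361 in SZN-1326-p replicate 1 at 24 h, each far above the other mice of its arm. Duox2 was 0.0138 and Nox1 0.0294 in uninjured replicate 2 at 24 h, where the other 3 uninjured mice held none. Each of these 2 values is 1 UMI in 1 of 58 cells, and with the other 3 mice at 0 any single UMI meets the criterion, so they carry no information on that mouse.

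Signal was also present outside the epithelial and myeloid classes. LymphEndo cells held 0.616 normalized Duox2 UMIs per cell in anti-GFP and 0.601 in SZN-1326-p mice, above 0.302 in uninjured mice. These came from 53 UMIs in 32 of 95 cells (6 of 6 mice with a UMI), 55 UMIs in 42 of 149 cells (5 of 6 mice) and 6 UMIs in 5 of 33 cells (3 of 4 mice). Duoxa2 followed at 0.484 and 0.302, against 0.192 in uninjured mice. Cells with at least 4 of the 7 epithelial markers numbered 2, 6 and 2, and without them Duox2 was 0.586, 0.615 and 0.266. VascEndo cells of anti-GFP mice held Duox2 in 4 of 257 cells.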

How the results depend on the processing

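The DSS increases of Duox2 (1.39 to 1.83), Duoxa2 (1.98 to 3.06), Nos2 (3.82 to 4.69) and Noxo1 (0.91 to 1.05) in epithelium passed with each of the 10 mice left out in turn, and Nox1 ranged from 0.45 to 0.90. Of the member changes recomputed under another setting, 224 kept their direction and side of the threshold, 21 lost the call, 6 gained it and 11 turned sign. With 1 mouse left out the numbers were 253, 27, 4 and 12. The cause of the changes below was not tested.

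For SZN-1326-p at 24 h, leaving out mice gave -0.81 to 0.0586 for Duox2, -0.18 to 0.85 for Duoxa2, -1.17 to 0.58 for Nos2, 0.84 to 1.71 for Nox1 and -0.26 to 0.0112 for Noxo1. At 48 h it gave -1.75 to -1.26 for Duox2, -2.03 to -1.28 for Duoxa2, -3.61 to -2.29 for Nos2, 0.76 to 1.27 for Nox1 and -0.28 to -0.06 for Noxo1. Over both times it gave -1.15 to -0.72, -0.94 to -0.43, -2.07 to -1.20, 0.92 to 1.35 and -0.22 to -0.09 in the same order, and for 48 h minus 24 h -1.56 to -0.70, -2.55 to -1.46, -3.56 to -1.81, -0.71 to 0.16 and -0.20 to 0.0796. In myeloid cells DSS gave 1.25 to 1.87 for Duox2, 1.78 to 3.08 for Nos2 and -0.0274 to 1.33 for Noxo1. Within types Duox2 ran from 3.13 to 6.54 in AltEnteroPC and 1.84 to 3.04 in TA2, Duoxa2 from 2.77 to 4.44 and 2.85 to 3.44, and Noxo1 in AltEnteroPC from 0.66 to 1.51. Genes called ranged from 1028 to 2980 for DSS, 275 to 1880 for SZN-1326-p at 24 h, 590 to 1147 at 48 h, 2065 to 3646 over both times and 0 to 21 for the difference of times, and in myeloid cells from 2870 to 3587 for DSS and 1 to 24 for SZN-1326-p.

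With no filter on low values, Nox1 at 24 h was 1.39 (adjusted p = 0.0591). A pseudocount of 0.1 gave Nos2 -1.79 at 48 h (adjusted p = 0.0681) and -1.06 over both times (0.0727), Nox1 0.65 at 48 h (0.0252) and 0.0818 for the difference of times, and myeloid Duox2 0.32 with DSS (0.161). Voom gave Duox2 -1.0003 at 48 h (0.0803), Nos2 0.30 at 24 h, -2.18 at 48 h (0.105) and -0.94 over both times (0.217), and Nox1 1.09 at 48 h (0.0351). It turned Noxo1 to 0.0750 at 48 h, 0.0318 over both times and 0.0864 for the difference of times, and gave 0.53 for Duox2 and -0.0541 for Noxo1 with DSS in myeloid cells. A fit of only the groups compared gave Nox1 1.39 at 24 h (0.135) and 1.00 at 48 h (0.0239), and Nos2 -1.67 over both times (0.0878). The library term gave Nox1 1.00 at 48 h (0.0207) and Nos2 -1.61 over both times (0.0714). Without both SZN-1326-p mice of high mitochondrial share, Nox1 at 24 h was 1.59 (0.0641), Duox2 at 48 h -1.36 (0.0771), and Nos2 -2.85 at 48 h (0.0858) and -1.74 over both times (0.0818). Without AltEnterocyte and AltEnterocyte3 cells, chosen after seeing the data, the DSS changes were 0.63 for Duox2 and 0.92 for Duoxa2. SZN-1326-p then gave Duox2 -0.78 at 48 h and -0.54 over both times, Duoxa2 0.0658 over both times, and Noxo1 0.0360 at 48 h and 0.12 for the difference of times. In myeloid cells at least 50 cells per library gave Duox2 1.25 with DSS (0.107), and dropping cells with 2 markers of another lineage gave -0.24 for Duox2 and -0.38 for Noxo1 with SZN-1326-p. The dropped cells were 43.0% of anti-GFP and 64.2% of SZN-1326-p myeloid cells.

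Mice of the DSS groups with the same replicate number were not treated as pairs, since their epithelial deviations correlated at -0.305 to 0.445 and not every pair was over 0.1; 5 of 6 epithelial pairs matched best with their own number. With the replicate block, Duoxa2 at 48 h was -1.71 (limma, adjusted p = 0.0363), myeloid Duox2 with DSS 1.27 (0.0853) and myeloid Nos2 with DSS 3.13 (0.00584); the block changed no other member's call.

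With 1 mouse left out, genes called moved by over 1.5 times in 29 counts and not in 39, over the ranges given above. Under the other settings the number moved that far in these 19 cases. At 24 h (1095), voom called 2174, the library term 1694, and leaving out mice of high mitochondrial share 360; the groups-only limma fit called 0 (2104 at an unadjusted p under 0.05). At 48 h (1345) the counts were 2556 with the library term, 812 without the high-mitochondrial mice and 737 without the AltEnterocyte types. For the difference of times (15) they were 1 with no filter, 6 with the pseudocount of 0.1 and 6 with the groups only, 60 with the library term and 24 without the AltEnterocyte types, and 0 by voom (1024 at an unadjusted p under 0.05) and by limma without the high-mitochondrial mice (598). For myeloid SZN-1326-p (5) they were 2 with no filter, 183 by voom, 20 with the groups only and 14 with at least 50 cells, and 0 by limma without the high-mitochondrial mice (751 at an unadjusted p under 0.05).

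Depth limits the sparse genes most: myeloid Nos2, Nox1 and Duoxa2 rest on 271, 15 and 36 UMIs. Of 38 shares recomputed without thinning or at 1500 UMIs, 28 moved beyond their interval.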

Other observations

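Nos2 was present in VascEndo cells at a like level in all 3 arms: 0.114 normalized UMIs per cell in uninjured mice (8 of 134 cells), 0.0968 in anti-GFP mice (16 of 257 cells) and 0.101 in SZN-1326-p mice (24 of 340 cells). In uninjured mice the UMIs came from all 4 animals. Noxo1 in the same cells was 0.0124, 0.110 and 0.0628 in the same order. These levels pool cells over mice and were not tested.

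In myeloid cells Gpx2 was higher with SZN-1326-p over both times, 1.91 ± 0.775 against 0.443 ± 0.161 (n = 6 each), a log2 difference of 2.09 (limma, adjusted p = 0.0213), without overlap between the mice. Epithelial Gpx2 was higher too, 8.78 ± 2.30 against 3.60 ± 1.41 (1.34, adjusted p = 0.000101). The epithelial marker sums in myeloid cells were 2.53 to 5.37 in anti-GFP and 4.24 to 13.4 in SZN-1326-p mice, and their part in the myeloid difference was not tested.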
